A study of Mus musculus with 32 samples.

Results

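The killer lectin-like receptors are natural killer (NK) cell receptors of the C-type lectin family that T cells can also carry, and 8 of them were followed here in donor T cells from a mouse model of graft-versus-host disease. The 8 genes, Klrc1, Klrc2, Klrd1, Klrk1, Klre1, Klrg1, Klra7 and Klrb1c, were taken by their symbols from a table of 16741 genes, and all 8 were present and passed the filter on low values. Each was read in all 31 libraries of sorted bulk RNA. In mismatched against syngeneic recipients, the genes of CD94, NKG2A, NKG2C and NKG2D rose in CD4 cells, and Klrg1, Klrk1 and Klrc1 rose in CD8 cells. In the 10-group fit no member passed the test for an effect of added regulatory T cells, although 1 to 3 members passed under some other settings.

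Klrd1 encodes CD94, which pairs with NKG2A (Klrc1) to form an inhibitory receptor or with NKG2C (Klrc2) to form an activating one, and both pairs read the non-classical class I molecule Qa-1, encoded by H2-T23. NKG2D, encoded by Klrk1, is an activating and costimulatory receptor for class I-like ligands that stressed cells display, and it signals through the adaptor DAP10 (Hcst). Klre1 pairs with the Klri receptors. Klrg1 binds cadherins, inhibits, and marks effector-differentiated T cells and a subset of regulatory T cells. Klra7 (Ly49G) is an inhibitory receptor for classical class I molecules, and Klrb1c is the activating receptor known as NK1.1.

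Donor T cells came from C57Bl6 mice. Regulatory T cells (Treg) and conventional CD4 and CD8 cells were sorted before transplantation (day 0) or afterwards from spleen and lymph nodes. The allogeneic group came from Balb/c recipients, a major histocompatibility mismatch, and the Treg-treated group from such recipients that also received Treg on day 0. The syngeneic group had no such mismatch, and the labels do not name the strain of its recipients. The titles place the later samples 6 days after transplantation, whereas the series description says 8 days, and no genetic modification is named for any group. CD4 and CD8 cells each had 2 day 0, 3 syngeneic, 4 allogeneic and 4 Treg-treated libraries. Treg had 2 day 0 libraries and 3 from Treg-treated recipients. Library names start with JL019 or JL027, which the labels do not explain, and nothing in the labels says whether libraries came from separate animals or pools, so the p-values measure only the spread between these libraries.

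Values below are normalised read counts, that is, reads per gene scaled between libraries by the authors, and read depth cannot be recovered from them. One library stood apart. In the CD4 syngeneic library JL019-2, Cd4 was at 1659 and Cd8a at 1956, whereas Cd4 was between 8722 and 21480 and Cd8a between 16.4 and 114 in the other CD4 libraries. The summed level of 13 NK cell markers was 57660 in it against 1792 and 1994 in the other CD4 syngeneic libraries, and that of 12 myeloid markers was 3637690 against 81204 and 87414. Comparisons with the CD4 syngeneic group are therefore given with and without it. The fit took the spread of each gene from all 31 libraries. This library thus also enters the intervals and p-values of comparisons that do not use the CD4 syngeneic group. Those were refitted without it only where the model held just the groups compared. In the libraries labelled Treg, Foxp3, the defining Treg factor, was between 198 and 442, below the 978 and 1145 of CD4 day 0 cells. The sum of all 8 Treg markers was 65241 and 68032 in day 0 Treg against 12224 and 13299 in day 0 CD4 cells, so the label is kept here with that limit. In bulk RNA of sorted cells, a change in the share of cells with a transcript and a change in transcript per cell cannot be told apart.

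All 8 genes lie on chromosome 6 of GRCm38.p6, as annotated in RefSeq. Klrg1 (ENSMUSG00000030114) spans chr6:122270596-122282833 and lies apart from the others. Klrb1c (ENSMUSG00000030325) spans chr6:128778485-128788641. The next 5 follow each other: Klre1 (ENSMUSG00000050241) at chr6:129559365-129585828, Klrd1 (ENSMUSG00000030165) at chr6:129588092-129598775, Klrk1 (ENSMUSG00000030149) at chr6:129610323-129623903, Klrc2 (ENSMUSG00000052736) at chr6:129649602-129660737 and Klrc1 (ENSMUSG00000030167) at chr6:129666015-129682852. Klra7 (ENSMUSG00000067599) spans chr6:130218605-130233322. Klrc1 and Klrc2 are close paralogs, and so are the Klra genes, so reads that fit both copies could have been divided between them when the authors assigned reads.

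Promoter windows, from 250 bases before to 50 bases after a transcription start, were read from RefSeq for 6 of the 8 genes, in 9 windows. Klrd1 and Klrg1 had none. The windows of 4 genes of this cluster whose changes differed are printed 5′ to 3′ on the gene's strand: Klrc1 and Klrc2, which both rose in CD4 cells while only Klrc1 of the pair passed in CD8 cells, Klrk1, which rose in both lineages, and Klre1, which fell in CD8 cells. They lie at chr6:129678924-129679223 (minus strand) for Klrc1, chr6:129660507-129660806 (minus) for Klrc2, chr6:129623815-129624114 (minus) for Klrk1 and chr6:129577963-129578262 (plus) for Klre1. Capitals mark a Runx motif, TGTGGT or its reverse complement ACCACA, or an AP-1 motif, TGANTCA.
Klrc1: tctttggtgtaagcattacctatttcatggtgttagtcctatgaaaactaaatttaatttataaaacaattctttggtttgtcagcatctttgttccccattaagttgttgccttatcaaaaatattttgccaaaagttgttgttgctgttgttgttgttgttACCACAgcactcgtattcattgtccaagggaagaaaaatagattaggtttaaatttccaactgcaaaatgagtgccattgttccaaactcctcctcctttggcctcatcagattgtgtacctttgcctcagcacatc
Klrc2: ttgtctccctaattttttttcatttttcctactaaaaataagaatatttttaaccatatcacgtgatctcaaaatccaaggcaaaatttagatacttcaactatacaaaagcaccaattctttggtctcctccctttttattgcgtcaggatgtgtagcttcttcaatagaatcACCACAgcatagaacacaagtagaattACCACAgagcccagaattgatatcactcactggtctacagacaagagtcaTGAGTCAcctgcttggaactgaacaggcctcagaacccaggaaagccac
Klrk1: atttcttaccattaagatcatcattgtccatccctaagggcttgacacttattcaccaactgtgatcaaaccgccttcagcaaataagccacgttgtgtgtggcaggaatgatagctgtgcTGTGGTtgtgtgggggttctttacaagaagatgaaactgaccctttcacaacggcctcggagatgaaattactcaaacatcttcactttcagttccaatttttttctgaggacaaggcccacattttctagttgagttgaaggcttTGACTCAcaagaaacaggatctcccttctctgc
Klre1: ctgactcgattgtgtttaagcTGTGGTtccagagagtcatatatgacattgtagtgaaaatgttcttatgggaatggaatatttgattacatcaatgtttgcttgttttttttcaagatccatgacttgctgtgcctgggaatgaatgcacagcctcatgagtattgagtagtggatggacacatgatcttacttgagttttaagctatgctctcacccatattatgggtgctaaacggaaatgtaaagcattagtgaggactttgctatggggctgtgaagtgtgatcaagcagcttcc
On both strands, the Runx letters occurred once in the printed windows of Klrc1, Klrk1 and Klre1 and in that of Klrb1c. They occurred at 2 places in the printed window of Klrc2. The AP-1 letters began 1 base downstream of the start in the printed Klrc2 window and 17 bases downstream of that of Klrk1. Klrc2 and Klre1 each have another window, for another start. In that of Klrc2 the AP-1 letters began 41 bases downstream, and that of Klre1 held none of the motifs. The Runx letters occurred in 16.8% of 32851 windows of this length and the AP-1 letters in 7.81%. The T-box letters GGTGTG, found in 19% of all windows, were in none of the 9, and neither Klra7 window held any of the 3 motifs. Such matches describe letters in these windows and say nothing of binding.

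The first comparison, allogeneic against syngeneic cells, asks how the receptors differ when donor T cells meet mismatched tissue. In CD4 cells, 5 of the 8 receptors rose and none fell (limma, Benjamini-Hochberg adjusted p under 0.05), where 14.6% of all genes passed in either direction and 6.69% rose. The median log2 change of the 8 was 1.96, against -0.0014 over all genes, and 2.83 against -0.011 without JL019-2. Changes here are of log2(value + 1), a scale that understates the change of low values. In CD8 cells, 3 rose and 1 fell, with 21.1% of all genes passing, and the median of the 8 was 0.11 against 0.017. The plot of all members by group shows each library.

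**Figure D1:**
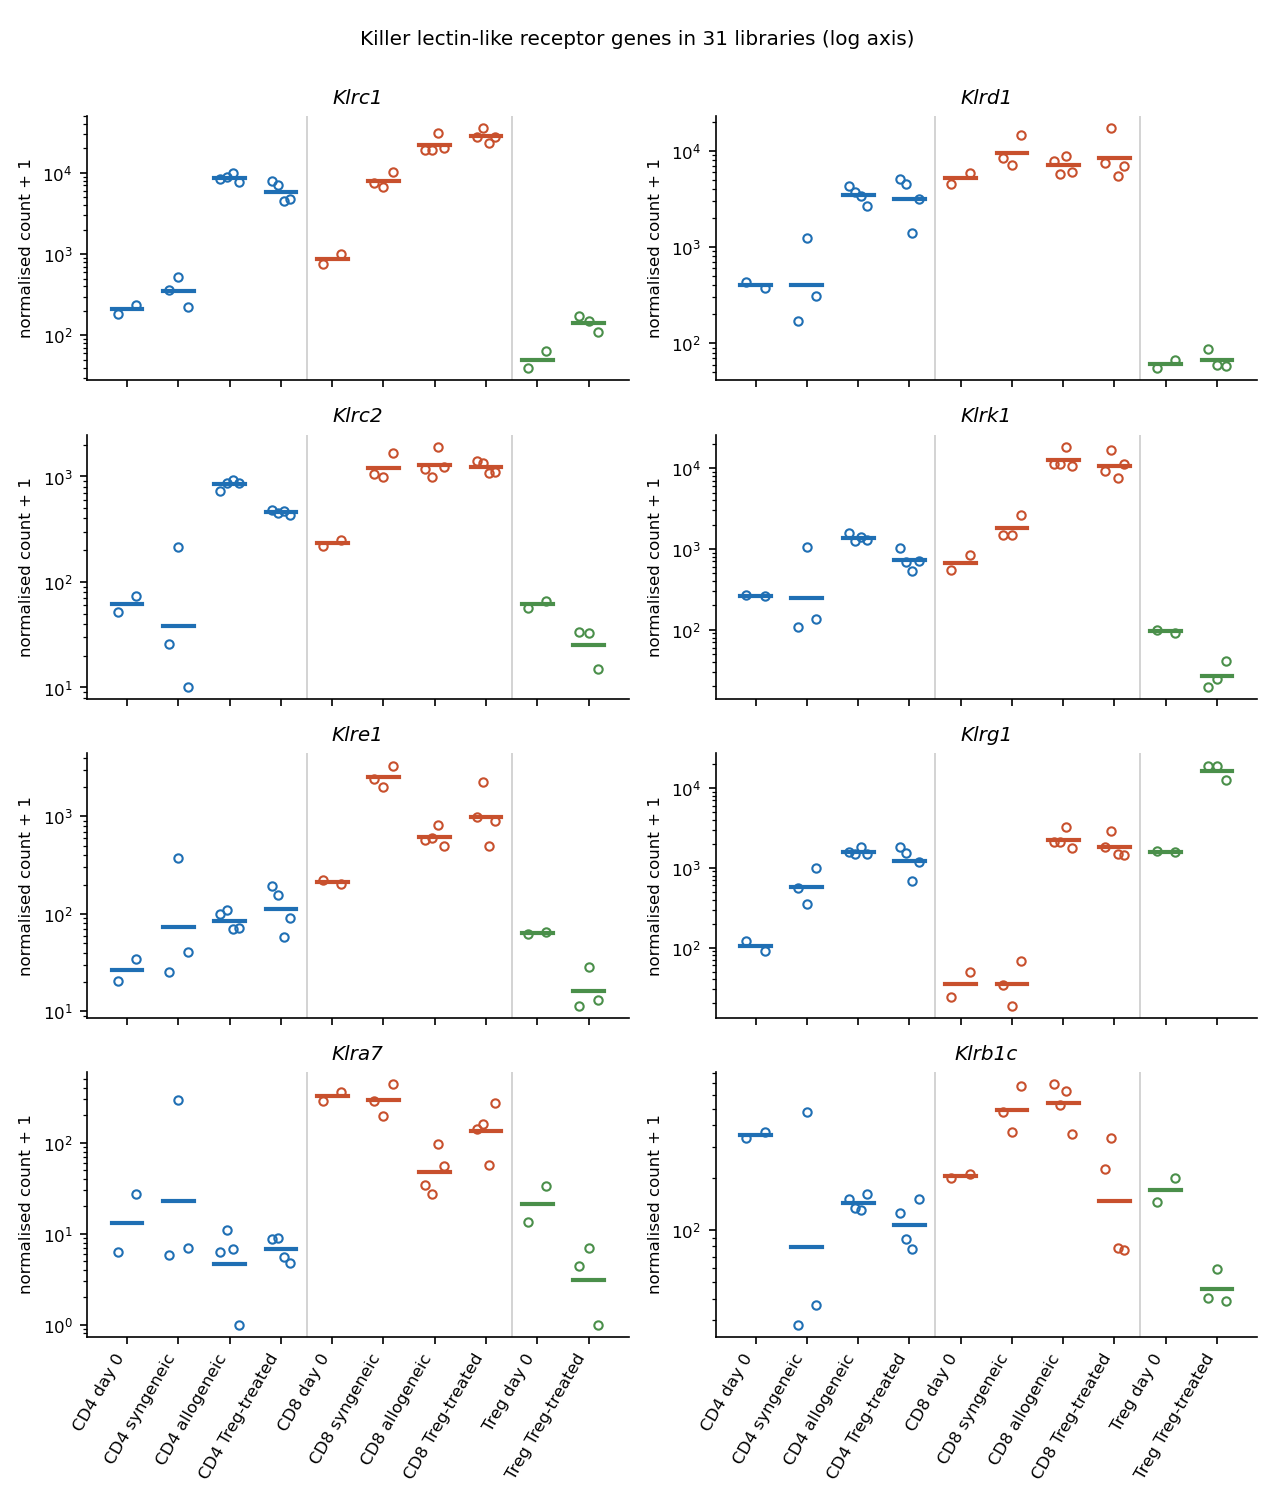
Normalised count plus 1 (log axis) of the 8 receptors in the 10 groups. Circles are libraries and bars the mean of the log2 values. Klrc1 is between 7642 and 10018 in CD4 allogeneic cells and at most 521 in CD4 syngeneic cells, and the single high circle of the CD4 syngeneic group in Klrd1, Klrk1, Klre1, Klra7 and Klrb1c is library JL019-2.

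Klrc1, the inhibitory NKG2A chain, stood at 365, 521 and 220 in the 3 CD4 syngeneic libraries and at 8518, 8947, 10018 and 7642 in the 4 CD4 allogeneic ones. Every allogeneic library was above every syngeneic one, and the mean, 8782 ± 987 (SD, n = 4), was 23.8 times the syngeneic mean of 369 ± 150 (n = 3). The log2 change was 4.65 (SE 0.27, limma adjusted p = 1.53e-12), and 4.94 without JL019-2. In CD8 cells Klrc1 was already at 7419, 6780 and 10145 in syngeneic recipients and reached 19078, 18944, 30522 and 20354 in allogeneic ones. Those groups did not overlap either, and the log2 change was 1.45 (SE 0.27, adjusted p = 0.000191).

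Klrc2, the activating NKG2C chain, was at 24.8, 214 and 9.07 in CD4 syngeneic libraries, the 214 being JL019-2, and at 735, 862, 926 and 860 in CD4 allogeneic ones. The groups did not overlap, and Klrc2 rose by a log2 change of 4.47 (SE 0.54, adjusted p = 1.04e-06), or 5.71 without JL019-2. In CD8 cells the values were 1051, 981 and 1684 in syngeneic and 1183, 992, 1913 and 1237 in allogeneic libraries. Those ranges lay over each other, with a log2 change of 0.10 (95% interval -1.0 to 1.21, adjusted p = 0.921). Leaving out one library or fitting the library label turned the sign of this small value.

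Klrd1, the shared CD94 partner chain, was at 169, 1228 and 307 in CD4 syngeneic libraries and at 4280, 3734, 3366 and 2657 in allogeneic ones. Even the syngeneic library JL019-2, at 1228, was below each allogeneic library. The log2 change was 3.11 (SE 0.47, adjusted p = 2.69e-05) and 3.92 without JL019-2. In CD8 cells, 8411, 7169 and 14811 in syngeneic libraries stood against 7943, 5778, 8952 and 6102 in allogeneic ones. These overlapped, and the log2 change of -0.44 (95% interval -1.41 to 0.52) did not pass (adjusted p = 0.555).

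Klrk1, which encodes NKG2D, passed in both lineages. The CD4 syngeneic values were 107, 1071 and 134 and the CD4 allogeneic values 1567, 1239, 1423 and 1283. The groups did not overlap, although JL019-2 came close, and the log2 change was 2.46 (SE 0.47, adjusted p = 0.000529), or 3.51 without that library. When the fit held only these groups the call was lost. In CD8 cells Klrk1 went from 1494, 1496 and 2651 in syngeneic to 11369, 11364, 18424 and 10512 in allogeneic libraries. The allogeneic mean of 12917 ± 3693 (SD, n = 4) was 6.87 times the syngeneic mean, and the log2 change was 2.80 (SE 0.47, adjusted p = 6.65e-05).

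Klre1, the partner of the Klri receptors, went the other way in CD8 cells. Its values were 2439, 2007 and 3329 in CD8 syngeneic libraries and 574, 602, 820 and 500 in allogeneic ones. All allogeneic libraries were lower, with a syngeneic mean 4.15 times the allogeneic one, and Klre1 fell by 2.05 on the log2 scale (SE 0.60, adjusted p = 0.014). The call was lost without the CD8 syngeneic library JL027, where the change was -1.85 (adjusted p = 0.0751). In CD4 cells it was at 24.5, 374 and 39.2 in syngeneic and at 97.7, 108, 68.6 and 70.8 in allogeneic libraries. The library JL019-2 held the 374, and the log2 change was 0.23 with it (adjusted p = 0.863) and 1.42 without it (adjusted p = 0.0514).

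Klrg1, the cadherin receptor, had the largest change of the 8 in CD8 cells. It was at 33.4, 17.6 and 67.8 in CD8 syngeneic libraries and at 2090, 2117, 3265 and 1748 in allogeneic ones. The allogeneic mean of 2305 ± 661 (SD, n = 4) was 58.2 times the syngeneic mean, and the log2 change was 5.99 (SE 0.38, adjusted p = 4.72e-12). Markers of Treg moved with it: 7 of 8 were higher in CD8 allogeneic than in syngeneic cells and 1 was lower, with a median log2 change of 3.71. Their summed level was between 3672 and 6861 in CD8 syngeneic and between 28097 and 35829 in CD8 allogeneic libraries, and Foxp3 was at 0, 3.52 and 0 in the former and between 103 and 453 in the latter. In CD4 cells the syngeneic libraries were already at 558, 347 and 984, and the allogeneic ones were at 1597, 1494, 1820 and 1474. The groups did not overlap, and the log2 change was 1.47 (SE 0.38, adjusted p = 0.00851). Without JL019-2 it was 1.10 and no longer passed (adjusted p = 0.0898). Of the 8 Treg markers, 4 were higher and 1 was lower in CD4 allogeneic than in syngeneic cells (4 and 2 without JL019-2), with a median of 1.49 (0.87 without it). Their sums were between 34133 and 43161 in CD4 allogeneic and between 4902 and 12445 in CD4 syngeneic libraries. The part of Treg in the Klrg1 changes was not tested.

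Klra7, the inhibitory Ly49G receptor, was at 288, 196 and 439 in CD8 syngeneic and at 33.7, 26.1, 95.1 and 54.8 in CD8 allogeneic libraries. The groups did not overlap, yet the log2 change of -2.63 (95% interval -4.64 to -0.62) missed the threshold (adjusted p = 0.0562). The spread used by this fit also takes in the CD4 syngeneic group with JL019-2. There the SD of the log2 values was 3.22, against 0.58 in CD8 syngeneic and 0.81 in CD8 allogeneic libraries. In CD4 cells Klra7 was at 4.76, 297 and 5.9 in syngeneic and at 5.36, 9.97, 5.83 and 0 in allogeneic libraries. Apart from the 297 in JL019-2, CD4 values were near the bottom of the scale, and the log2 change was -2.29 with that library (adjusted p = 0.13) and -0.43 without it (adjusted p = 0.861).

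Klrb1c, or NK1.1, was at 479, 367 and 679 in CD8 syngeneic and at 692, 525, 636 and 358 in CD8 allogeneic libraries. These overlapped, with a log2 change of 0.12 (95% interval -1.12 to 1.37, adjusted p = 0.916). In CD4 cells its values were 27.3, 477 and 35.8 in syngeneic and 149, 133, 129 and 159 in allogeneic libraries. With JL019-2, at 477, the log2 change was 0.85 (adjusted p = 0.414), and without it Klrb1c rose by 2.15 (adjusted p = 0.00105). Without JL019-2 the CD4 count was thus again 5 of 8, with Klrb1c in and Klrg1 out, where 10.9% of all genes passed.

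The 13 NK cell markers did not all go one way beside these changes. In CD4 allogeneic against syngeneic cells 4 were higher and 3 lower, with a median of -0.43, and without JL019-2 5 were higher and 2 lower, with a median of 0.84. In CD8 cells 4 were higher and 4 lower, with a median of -0.77. The summed level of the 13 was between 9251 and 17152 in CD4 allogeneic libraries, above 2 of the CD4 syngeneic libraries and below JL019-2. The sum of CD8 allogeneic libraries was between 85409 and 129391 against 3824 to 6400 in CD8 syngeneic ones. Gzma, which activated T cells express too, made up most of these sums, with a mean of 11051 in CD4 and 97016 in CD8 allogeneic cells. Ncr1, which encodes the NK cell receptor NKp46, was at 11.7, 468 and 15.1 in CD4 syngeneic libraries, between 3.98 and 10.5 in CD4 allogeneic and between 1.72 and 8.67 in CD8 allogeneic libraries, and Klra8 was listed at 0 in all 4 CD8 allogeneic libraries. Myeloid markers summed to between 8708 and 15677 in CD4 allogeneic and between 11873 and 17574 in CD8 allogeneic libraries, below the syngeneic libraries of either lineage. Of 9 B cell markers, 2 were higher and 1 lower in CD4 and 2 lower in CD8 allogeneic cells, and of 6 erythroid markers 2 were lower in CD4 cells. Of 5 gamma-delta and NKT-like markers, 2 were lower in CD4 cells (median -1.82), and 2 were higher and 1 lower in CD8 cells (median -1.50). The part of other cell types in the receptor changes was not tested.

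The responses of the lineages were then compared as a difference of differences, the CD8 change minus the CD4 change. In this test 4 of the 8 receptors passed, 1 higher and 3 lower, where 4.65% of all genes passed. Klrc1 (-3.20, SE 0.38, adjusted p = 4.58e-06), Klrc2 (-4.36, SE 0.76, adjusted p = 0.00064) and Klrd1 (-3.55, SE 0.66, adjusted p = 0.00132) changed more in CD4 cells. Klrg1 changed more in CD8 cells (4.52, SE 0.54, adjusted p = 5.42e-06). For Klrk1 the difference was 0.34 (95% interval -1.04 to 1.72, adjusted p = 0.889). Without JL019-2 the 4 differences were -3.50, -5.61, -4.36 and 4.89, Klre1 (-3.46, adjusted p = 0.0008) and Klrb1c (-2.03, adjusted p = 0.0446) also passed, and 3.97% of all genes did. For Klrk1 the difference without that library was -0.71 (adjusted p = 0.479).

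**Figure D2:**
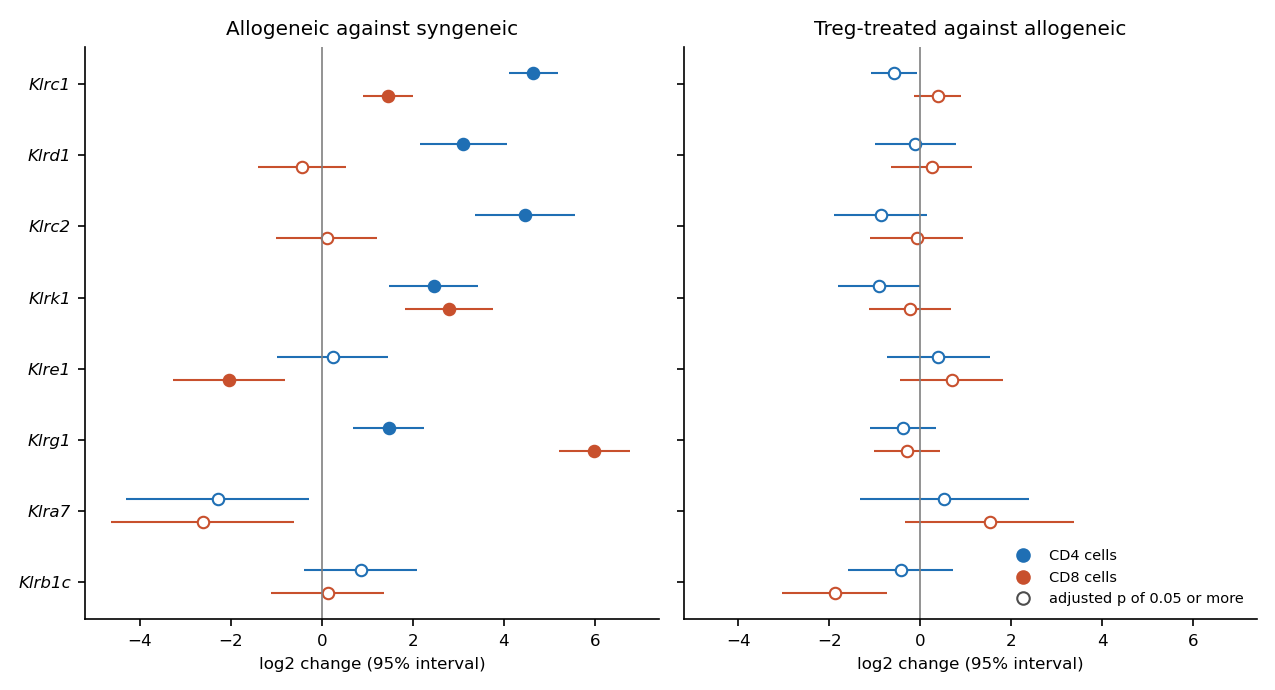
Log2 change of each receptor, with 95% intervals, in CD4 cells (blue) and CD8 cells (orange), for allogeneic against syngeneic and for Treg-treated against allogeneic libraries. Filled symbols passed at an adjusted p of 0.05. Klrc1, Klrc2 and Klrd1 lie further right in CD4 than in CD8 cells, Klrg1 further right in CD8 cells (5.99 against 1.47), and no symbol is filled in the Treg-treated comparison.

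The effect of the Treg given on day 0 was read from Treg-treated against allogeneic libraries. In CD4 cells none of the 8 receptors passed, where 22.2% of all genes did, and 2 of them had an unadjusted p under 0.05, where 37% of all genes did. In 2 of the 8, Klrc2 and Klrk1, the groups did not overlap, as for 22.2% of all genes. In CD8 cells none of the 8 passed, where 0.0657% of all genes did, and 1, Klrb1c, had an unadjusted p under 0.05, where 11.1% of all genes did, and groups that did not overlap, as for 4.89% of all genes. In CD4 cells 2 members were lower with only these groups in the model (25.1% of all genes passing), 3 with array weights (47.5%), 3 with the library mean as a covariate (3.4%) and 1 with quantile normalisation (23.3%). In CD8 cells Klrb1c was lower with array weights (1.92%) and with the library mean as a covariate (0.299%). These comparisons share their allogeneic libraries with the first one. The median log2 change of the 8 was -0.41 in CD4 cells and 0.086 in CD8 cells, against -0.0018 and -0.0069 over all genes. Centring each library on its median moved the middle of all genes in these comparisons by 0.25 in CD4 and 0.11 in CD8 cells, and changes smaller than that have no firm sign.

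Klrc1 was at 7921, 7040, 4507 and 4724 in CD4 Treg-treated libraries, where the allogeneic range was 7642 to 10018. Of the 4, 3 were below that range and 1 within it, and the log2 change was -0.57 (95% interval -1.08 to -0.07, adjusted p = 0.0907). The change was -0.23 among JL019 libraries and -0.92 among JL027 libraries. In CD8 Treg-treated libraries Klrc1 was at 27727, 35609, 23496 and 27450, overlapping the allogeneic 18944 to 30522, with a log2 change of 0.38 (95% interval -0.13 to 0.88, adjusted p = 0.549). The CD8 minus CD4 difference of the Treg effect on Klrc1 was 0.95 (95% interval 0.23 to 1.67, unadjusted p = 0.0112) and did not pass after adjustment (adjusted p = 0.898). None of the 8 passed in that difference, with 0.00597% of all genes passing.

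Klrc2 and Klrk1 were lower in every CD4 Treg-treated library than in every CD4 allogeneic one. Klrc2 was at 484, 453, 472 and 434 (mean 461 ± 21.9, SD, n = 4) against an allogeneic mean of 846 ± 80 (n = 4), a log2 change of -0.87 (95% interval -1.89 to 0.15, adjusted p = 0.209). Klrk1 was at 1037, 697, 535 and 717 against 1239 to 1567, a log2 change of -0.92 (95% interval -1.82 to -0.02, adjusted p = 0.128). Within the name prefixes the changes were -0.76 and -0.98 for Klrc2 and -0.71 and -1.12 for Klrk1, for JL019 and JL027. Both passed with only the compared groups in the model (adjusted p = 0.00978 and 0.0139) and with array weights. Myeloid markers summed to between 27699 and 95950 in CD4 Treg-treated libraries, above the 8708 to 15677 of CD4 allogeneic ones, and Cd4 was between 8722 and 9370 in 3 of the 4 Treg-treated libraries against 16706 to 21480. Of the 12 myeloid markers, 2 were higher and 1 lower with Treg, and the part of other cell types in these values was not tested. In CD8 cells Klrk1 was at 9242, 16710, 7527 and 11291 with Treg, across the allogeneic range, and Klrc2 at 1393, 1332, 1084 and 1099, within the allogeneic range.

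Klrd1 spread widely between Treg-treated libraries, at 5122, 4509, 1405 and 3195 in CD4 cells and at 7513, 17330, 5516 and 7044 in CD8 cells. Both sets overlapped the allogeneic libraries, with log2 changes of -0.12 (95% interval -1.01 to 0.78) and 0.25 (95% interval -0.64 to 1.14), neither of which passed. The sign of the CD4 value turned when libraries were centred on their medians. Klrg1 was at 1796, 1509, 678 and 1193 in CD4 and at 1808, 2879, 1468 and 1438 in CD8 Treg-treated libraries, again across the allogeneic ranges, with log2 changes of -0.39 (adjusted p = 0.462) and -0.30 (adjusted p = 0.734).

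Klrb1c had the largest difference in CD8 cells. It was at 223, 336, 76.9 and 75.8 with Treg, against 692, 525, 636 and 358 without. All 4 Treg-treated libraries were lower, with an allogeneic mean 3.11 times the Treg-treated one. The log2 change of -1.88 (SE 0.56, 95% interval -3.04 to -0.73) did not pass (adjusted p = 0.207), although it did with array weights (adjusted p = 0.000785) and with the library mean as a covariate (adjusted p = 0.0148), and it was -1.14 within JL019 and -2.63 within JL027. The CD8 Treg-treated libraries were also below all 3 CD8 syngeneic ones, a change of -1.76 (adjusted p = 0.043) in that comparison, whose call was lost when any of 5 single libraries was left out and under 5 other settings. Klre1, at 978, 2237, 492 and 898, and Klra7, at 140, 158, 55.3 and 271, overlapped the allogeneic libraries, with changes of 0.69 (adjusted p = 0.613) and 1.52 (adjusted p = 0.515). In CD4 Treg-treated libraries Klrb1c was at 124, 87.2, 76.0 and 149, of which 3 lay below the allogeneic range of 129 to 159 and 1 within it. Klre1 was at 192, 155, 56.7 and 89.8, across the allogeneic range, and Klra7 was at most 8.02. The NK cell receptor Ncr1 rose in CD8 Treg-treated libraries, to between 40.4 and 107 (log2 change 3.60, adjusted p = 0.0448), and in CD4 Treg-treated ones, to between 21.3 and 46.3 (2.20, adjusted p = 0.0302). It was the only one of the 13 NK cell markers to pass in either lineage, and the list medians were 0.33 in CD8 and -0.45 in CD4 cells. The part of NK cells in the Treg-treated values was not tested.

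Against syngeneic cells, 4 of 8 receptors were higher in CD4 Treg-treated cells, where 16.7% of all genes passed and 8.23% were higher. They were Klrc1 (log2 change 4.08), Klrc2 (3.59), Klrd1 (2.99) and Klrk1 (1.54, adjusted p = 0.0258). The call of Klrk1 was lost in 5 of the fits that left out 1 library. With only these groups in the model 1 of the 8 passed, where 3.57% of all genes did. Without JL019-2, 27.6% of all genes passed and the changes were 4.37, 4.84, 3.80 and 2.59, with Klre1 (1.81) and Klrb1c (1.72) passing too. In CD8 Treg-treated cells 3 were higher and 1 lower than in syngeneic cells, where 18.2% of all genes passed: Klrc1 (1.82, adjusted p = 9.12e-06), Klrk1 (2.56, adjusted p = 0.000204), Klrg1 (5.69, adjusted p = 1.33e-11) and the lower Klrb1c. Of the Treg markers 6 of 8 were higher and 1 lower there, with a median of 3.62 and sums between 21278 and 35747 with Treg, and 5 NK cell markers were higher and 3 lower. In CD4 cells 8 of 12 myeloid markers were lower (5 lower and 2 higher without JL019-2), and 4 NK cell markers were higher and 4 lower (6 and none without it). The part of other cell types was not tested.

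Levels before transplantation differed between receptors and lineages. In the 2 day 0 CD4 libraries Klrc1 was at 184 and 236, Klrk1 at 267 and 260, and Klrd1 at 427 and 371. In day 0 CD8 cells they were at 763 and 1014, at 548 and 830, and at 4527 and 5923. Klrc1 and Klrk1 were below every later CD8 library at the start, and Klrd1 was below every CD8 syngeneic library (7169 to 14811) but overlapped the mismatched CD8 groups. Klrc2 was at 51.4 and 72.9 in day 0 CD4 and at 217 and 247 in day 0 CD8 cells. Klra7 was at 5.33 and 26.4 in day 0 CD4 and at 288 and 362 in day 0 CD8 cells, its highest group. Klrb1c stood the other way round, at 339 and 367 in day 0 CD4, the highest mean of the CD4 groups, and at 198 and 208 in day 0 CD8 cells, without overlap but short of the threshold (CD8 against CD4 -0.80, adjusted p = 0.864). Against day 0, 5 of 8 receptors were higher in CD4 allogeneic cells, where 24% of all genes passed and 14.4% were higher: Klrc1 (5.38, adjusted p = 2.4e-13), Klrc2 (3.76, adjusted p = 3.08e-05), Klrd1 (3.12), Klrk1 (2.38) and Klrg1 (3.93). In CD8 allogeneic cells 4 were higher, where 30.4% of all genes passed and 16.3% were higher: Klrc1 (4.63), Klrc2 (2.48), Klrk1 (4.22) and Klrg1 (6.02, adjusted p = 2.76e-11). Klrd1 changed by 0.45 there (95% interval -0.64 to 1.54, adjusted p = 0.551), but with the library mean as a covariate it passed in the other direction (-0.92, adjusted p = 0.036). The Klrc2 calls in both lineages were lost when the library label was fitted. Marker lists moved in these comparisons too. In CD8 allogeneic cells 6 of 8 Treg markers were higher than at day 0 and 1 lower (median 3.17), and 6 of 9 B cell markers lower (median -2.65). Of 13 NK cell markers 4 were higher and 4 lower there, and of 12 myeloid markers 4 were higher and 3 lower. In CD4 allogeneic cells 5 of 13 NK cell and 5 of 12 myeloid markers were higher, and 4 of 5 gamma-delta and NKT-like markers were lower (median -3.41). Of 8 Treg markers 4 were higher and 2 lower, and of 9 B cell markers 1 was higher and 4 were lower. Their part in the receptor changes was not tested.

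Syngeneic cells were compared with the same day 0 libraries. In CD8 syngeneic cells 3 of 8 rose from day 0, where 24.2% of all genes passed and 13% rose. These were Klrc1 (3.18, adjusted p = 1.31e-07), Klrc2 (2.37, adjusted p = 0.01) and Klre1 (3.57, adjusted p = 0.000905), the last from 222 and 203 at day 0, and the first 2 were also among the 4 called in CD8 allogeneic cells. Not every call held in all fits that left out 1 library. The changes there ranged from 2.98 to 3.39 for Klrc1, 2.13 to 2.52 for Klrc2 and 3.38 to 3.74 for Klre1. Klrg1, at 23.2 and 48.5 in day 0 CD8 cells, had a change of 0.029 (95% interval -0.91 to 0.97). In CD4 syngeneic cells 1 rose and 1 fell, where 13% of all genes passed: Klrg1 rose (2.47, adjusted p = 0.000375) from 119 and 89.4, and Klrb1c fell by 2.16 (adjusted p = 0.048) from 339 and 367. The Klrb1c call was lost without either day 0 library, without syngeneic library JL019-1 or JL027, with the library label as a block (adjusted p = 0.101), with median centring (adjusted p = 0.0537) and with only these groups in the model, where the Klrg1 call was lost too (adjusted p = 0.121). Without JL019-2, 7.93% of all genes passed, Klrg1 rose by 2.83, Klrb1c fell by 3.46 (adjusted p = 1.46e-05) and Klrc2 fell by 1.95 (adjusted p = 0.00076). Markers of other cells moved too. In CD4 syngeneic cells 10 of 12 myeloid markers were higher than at day 0 (7 without JL019-2), with sums of at least 81204 against 2787 and 3972 at day 0. The 5 gamma-delta and NKT-like markers in the table, of 8 listed, summed to 601 and 648 in day 0 CD4 libraries and to 252, 712 and 223 in the syngeneic ones, the 712 being JL019-2, and 1 of them was lower. Of the 6 erythroid markers 4 were higher in CD4 syngeneic cells. Zbtb16, the factor of NKT cells, had a mean of 96.9 in the former and 10.7 in the latter. In CD8 syngeneic cells 2 myeloid markers were higher and 3 of the 5 gamma-delta and NKT-like markers were lower than at day 0. There 7 of 9 B cell markers were lower and 1 was higher (median -2.55), with sums of 97578 and 129781 at day 0 and between 23169 and 29091 afterwards, and 2 of 6 erythroid markers were lower. Of 13 NK cell markers, 5 were higher and none lower than at day 0 in CD4 syngeneic cells (4 and none without JL019-2). In CD8 syngeneic cells 3 were higher and 2 lower. Of 8 Treg markers, 3 were lower and none higher in CD4 syngeneic cells (1 and none without JL019-2). In CD8 syngeneic cells 2 Treg markers were higher and 4 lower. The part of these cells in the receptor changes was not tested.

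CD8 and CD4 cells of the same arm were compared next. At day 0, 4 of 8 receptors were higher in CD8 cells, where 3.32% of all genes passed and 2.22% were higher: Klrd1 (3.70), Klrc1 (2.07), Klre1 (3.0) and Klra7 (4.62). The last pair lost the call when any 1 of the 4 libraries was left out. In syngeneic recipients all 8 passed, 7 higher and 1 lower in CD8 cells, where 12% of all genes passed, and all 8 also passed without JL019-2, with 9.55% of all genes. The lower one was Klrg1 (-4.03, adjusted p = 7.22e-08), and the higher changes were between 2.64 for Klrb1c and 5.12 for Klre1. Without JL019-2 Klrg1 was at -4.39 and the others between 3.91 for Klrk1 and 6.31 for Klre1. With only the 2 syngeneic groups in the model 4 of the 8 passed, where 1.68% of all genes did. Fits that left out 1 library called 6 to 8. In the same comparison 7 of 8 Treg markers were lower in CD8 cells, with and without JL019-2 (medians -3.03 and -3.78), and 5 of 12 myeloid markers were lower (2 without it). Their part in the Klrg1 value was not tested. In allogeneic recipients 5 were higher in CD8 cells, where 6.15% of all genes passed and 3.05% were higher: Klrc1 (1.32), Klrk1 (3.20), Klre1 (2.84), Klra7 (3.34) and Klrb1c (1.91). Klrg1, at 0.49 (95% interval -0.23 to 1.22, adjusted p = 0.522), no longer separated the lineages. In Treg-treated recipients 5 were higher, where 9.61% of all genes passed and 4.9% were higher: Klrc1 (2.27), Klrd1 (1.40), Klrk1 (3.88), Klre1 (3.15) and Klra7 (4.34). The call of Klrb1c in allogeneic recipients was lost in 7 of the fits that left out 1 library. Such fits called 3 to 4 in allogeneic and 4 to 5 in Treg-treated recipients. Of 13 NK cell markers, 2 were higher in CD8 cells at day 0, 3 in allogeneic and 3 in Treg-treated recipients, with none lower. In syngeneic recipients 3 were higher and 2 lower (7 and none without JL019-2). Of 8 Treg markers, 6 were lower at day 0 and 2 in each mismatched arm, with none higher. The part of these cells was not tested.

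**Figure D3:**
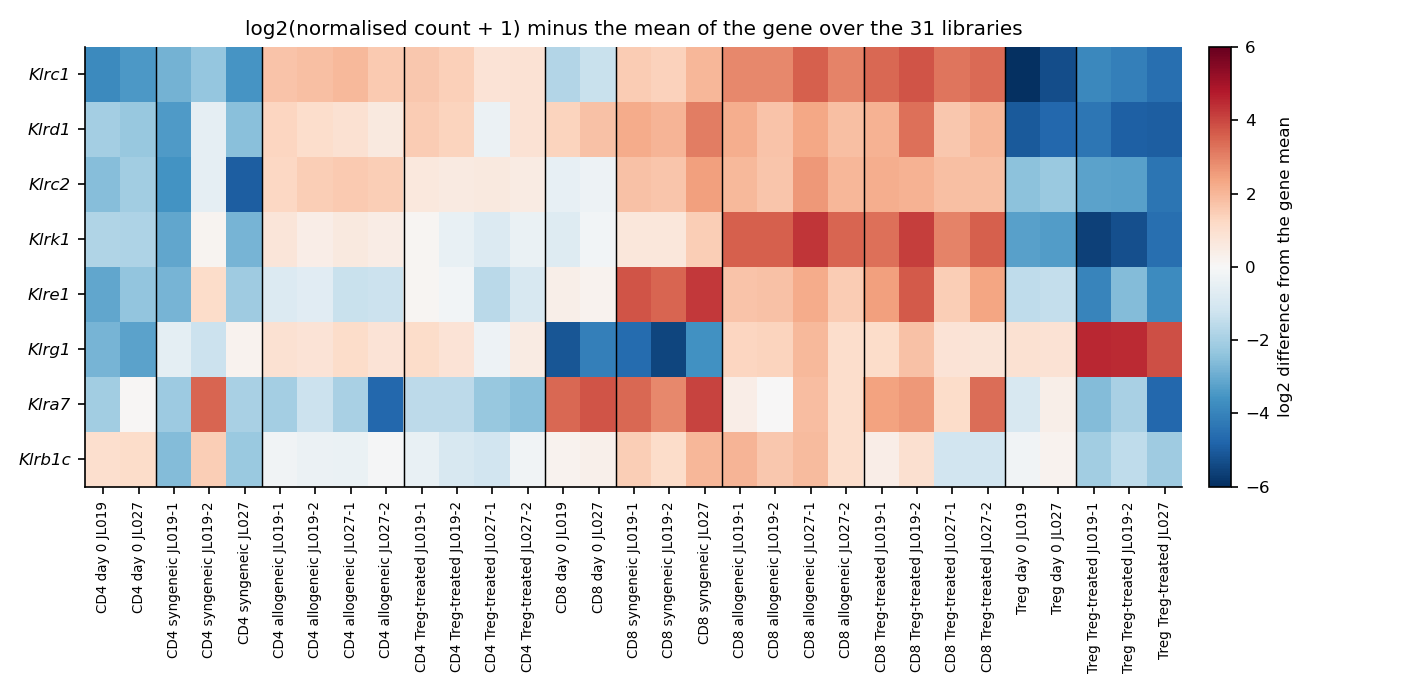
Each receptor in each of the 31 libraries, as log2(value + 1) minus the gene's mean over the libraries, on a colour scale from -6 to 6. Klrg1 is highest in the 3 later Treg libraries, where Klrd1, Klrk1 and Klre1 are low, and the CD4 syngeneic library JL019-2 is the highest of its group in 7 of the 8 receptors, Klrg1 being the exception.

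Among the libraries labelled Treg, Klrg1 was at 1610 and 1555 at day 0 and at 19106, 18881 and 12463 after transplantation. The later mean of 16817 ± 3772 (SD, n = 3) was 10.6 times the day 0 mean and above every CD4 and CD8 library, and the log2 change was 3.38 (SE 0.46, adjusted p = 5.52e-06). In this comparison 2 of 8 rose and 1 fell, where 13.3% of all genes passed. Klrc1 rose by 1.50 (adjusted p = 0.00146), from 38.2 and 64.0 to 173, 150 and 110. Klrk1 fell by 1.83 (adjusted p = 0.0296), from 99.2 and 90.6 to 18.4, 23.4 and 40.2. Its groups did not overlap, although all these Klrk1 values were low. With the library label as a block, or without the day 0 Treg library JL019, only the Klrg1 call was left. There Klrc1 was at 1.03 (adjusted p = 0.103) and 1.14 (adjusted p = 0.0915). The call of Klrk1 was also lost when the day 0 library JL027 or either later JL019 library was left out, and with quantile normalisation (adjusted p = 0.057). Of the 13 NK cell markers 2 were higher and 5 lower after transplantation (median -0.73), and 3 of 6 erythroid markers were higher (median 4.40). Their part in these changes was not tested.

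Treg and CD4 cells differed at both times. At day 0, 1 of 8 was higher and 2 were lower in Treg, where 3.89% of all genes passed: Klrg1 was higher (3.93, adjusted p = 1.06e-05), and Klrc1 (-2.05, adjusted p = 0.000493) and Klrd1 (-2.72, adjusted p = 0.00809) were lower. Not all of these calls held when any 1 of the 4 libraries was left out, which leaves 1 in its group. The changes then ranged from 3.72 to 4.13 for Klrg1, -2.42 to -1.69 for Klrc1 and -2.87 to -2.56 for Klrd1. In Treg-treated recipients 1 was higher and 5 were lower in Treg than in CD4 cells, where 30% of all genes passed. Klrg1 was higher by 3.76 (adjusted p = 7.3e-08), and the lower ones were Klrd1 (-5.58), Klrc1 (-5.36), Klrk1 (-4.76), Klrc2 (-4.18) and Klre1 (-2.79). Klrd1 was at 86.3, 57.9 and 57.2 in these Treg, Klrc2 at 32.4, 31.8 and 14.1, and Klre1 at 10.4, 27.5 and 12.0. Of 13 NK cell markers 1 was higher and 6 were lower in these Treg than in CD4 cells (median -1.08). Of 12 myeloid markers 2 were higher and 3 lower. At day 0, 1 NK cell marker was higher in Treg and none lower. The part of other cell types in these differences was not tested. Klrb1c went from 144 and 199 in day 0 Treg to 39.3, 58.2 and 37.7, without overlap, and its change of -1.92 did not pass (adjusted p = 0.0841). Klra7 was at most 32.7 in any Treg library.

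The order of the 10 groups differed between receptors. For Klrc1, CD8 Treg-treated and CD8 allogeneic cells came first and overlapped, CD4 allogeneic, CD8 syngeneic and CD4 Treg-treated cells followed, each overlapping the next, and then came CD8 day 0, CD4 syngeneic, CD4 day 0 and both Treg groups. For Klrk1, both mismatched CD8 groups stood clear of the rest, and the CD8 syngeneic and CD4 allogeneic groups overlapped next. For Klrg1, Treg after transplantation stood alone at the top. The mismatched CD8 and CD4 groups and day 0 Treg came next, each overlapping its neighbour, and the CD8 syngeneic and day 0 groups, which overlapped, came last. For Klre1, CD8 syngeneic cells came first and overlapped CD8 Treg-treated cells. For Klra7, each group overlapped the next in the order, from CD8 day 0 at the top to Treg after transplantation.

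The 15 other killer lectin-like receptors in the table, of 20 listed, are relatives that were read beside the 8. In CD8 cells, 1 rose and 6 fell in allogeneic recipients, where 21.1% of all genes passed, with a list median of -1.50 against 0.017 over all genes. Klrb1b, an inhibitory receptor for Clec2d, rose from a mean of 1.87 ± 1.69 (SD, n = 3) to 839 ± 241 (n = 4), a log2 change of 8.40 (SE 0.62, adjusted p = 6.18e-11). Of the 9 Klra genes among them, which encode inhibitory or activating Ly49 receptors, 6 fell and 3 did not pass. Those that fell included Klra4 from 474 to 2.33 (-7.09, adjusted p = 3.47e-06), Klra6 from 417 to 13.4 (-5.01, adjusted p = 3.41e-05), and Klra8, from 99.6 to values listed at 0. Klra7, of the same family, missed the threshold at -2.63. In CD4 cells 3 rose and 3 fell, where 14.6% of all genes passed, with a median of -0.77 against -0.0014. Without JL019-2, 4 rose and none fell, where 10.9% of all genes passed, with a median of -0.17: Klrc3 (4.20), Klri2 (3.69), Klrb1b (3.98) and Klrb1f (1.02). Klri2, the partner of Klre1, was among them. None of the 15 passed in Treg-treated against allogeneic cells of either lineage. In Treg after transplantation, Klrg2 rose from 6.57 to 53.6 (2.83, adjusted p = 0.0239) and 4 fell, where 13.3% of all genes passed. Some of these genes, Klrb1b, Klra4 and Klra8 among them, also stand in the NK cell marker list.

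**Figure D4:**
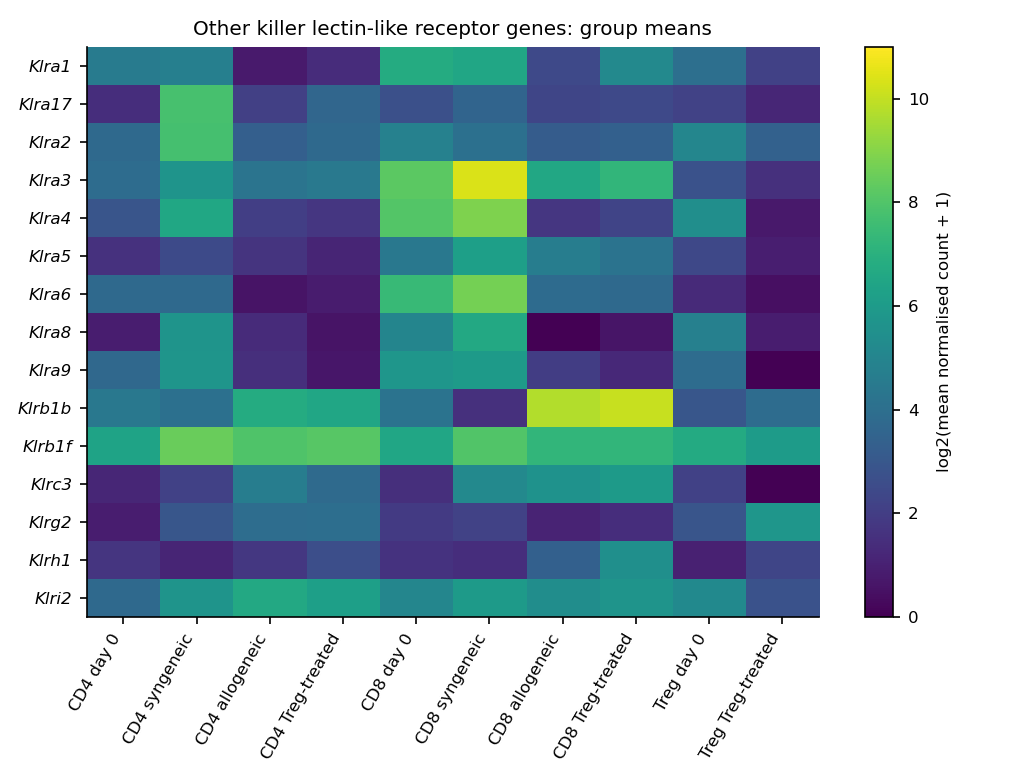
Mean normalised count, as log2(mean + 1), of the 15 other killer lectin-like receptors in the 10 groups. Klrb1b is high in the CD8 allogeneic and Treg-treated groups (means 839 and 1079), and Klra3, Klra4 and Klra6 are high in CD8 syngeneic cells (1323, 474 and 417).

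Adaptors and signalling proteins downstream of the receptors were listed as 20 genes, all in the table. In CD8 allogeneic against syngeneic cells, 2 of the 20 rose and 3 fell, where 21.1% of all genes passed, with a median of -0.038 against 0.017. Ptpn6, the SHP-1 phosphatase that NKG2A recruits, fell from 21305 ± 1195 (SD, n = 3) to 10048 ± 1308 (n = 4) (log2 change -1.09, SE 0.18, adjusted p = 3.92e-05). Tyrobp, or DAP12, through which NKG2C signals, fell by 2.76 (adjusted p = 0.0138). Myeloid cells also express Tyrobp, and 5 of the 12 myeloid markers fell and 2 rose in this comparison, with sums between 41540 and 67282 in CD8 syngeneic and between 11873 and 17574 in CD8 allogeneic libraries. Their part in the Tyrobp value was not tested. Pik3r1 (0.83) and Crk (0.59) rose. In CD4 cells 5 rose and 3 fell, where 14.6% of all genes passed, with a median of 0.43, but without JL019-2 none rose and 1 fell, Tyrobp (-2.76), where 10.9% of all genes passed, with a median of 0.27. Myeloid markers fell there too, 9 of 12 with JL019-2 and 7 without it. With Treg, 1 rose and 4 fell in CD4 cells, where 22.2% of all genes passed, with a median of -0.28 against -0.0018: Plcg1 (-2.62, adjusted p = 0.0214), Plcg2 (-2.19), Vav1 (-1.07) and Pik3r1 (-0.74). None of the 20 passed in CD8 cells with Treg.

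Genes for ligands of the receptors were also read in the T cells, 14 in the table of 19 listed. In CD8 allogeneic cells 4 were lower than in syngeneic cells and none higher, where 21.1% of all genes passed, with a median of -0.51 against 0.017: H2-K1 (-0.999, adjusted p = 0.000795), Clec2d (-1.27), the Qa-1 gene H2-T23 (-0.66, adjusted p = 0.0254) and B2m (-0.84). In CD4 cells 1, Clec2d (-1.08, adjusted p = 0.0245), was lower, and none passed without JL019-2, where Clec2d was at -1.02 (adjusted p = 0.0825). With Treg, 4 ligand genes were higher in CD4 cells and none lower, where 22.2% of all genes passed, with a median of 0.29 against -0.0018: Clec2d (1.38, adjusted p = 0.00879), B2m (1.15), H2-T23 (0.70) and H2-K1 (0.54, adjusted p = 0.0457). In CD8 cells with Treg none of the 14 passed.

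Regulators of the NK-like effector programme were 16 genes, all in the table. In CD8 allogeneic cells 4 rose and 4 fell, where 21.1% of all genes passed, with a median of 0.17 against 0.017. Prdm1, which encodes the effector factor Blimp-1, rose by 4.48 (adjusted p = 1.78e-12), while Id3 (-5.19, adjusted p = 8.47e-13), Tcf7 (-3.39), a factor of naive and memory cells, and Eomes (-2.17) fell. In CD4 cells 6 rose and 3 fell, where 14.6% of all genes passed, with a median of 0.26 against -0.0014. Without JL019-2, 5 rose and 3 fell, where 10.9% of all genes passed, and the median was -0.49. Prdm1 (2.91), Tbx21 (2.61), which encodes T-bet, and Id2 (2.15) rose, and Id3 (-2.02) fell. Without that library these were 2.51, 2.02, 2.40 and -2.04. With Treg, 2 rose and 3 fell in CD4 cells, where 22.2% of all genes passed, with a median of -0.53: Id3 rose (1.89, adjusted p = 0.000681), and Prdm1 (-1.37, adjusted p = 0.00348), Tgfbr2 (-2.05) and the IL-2 and IL-15 receptor chain Il2rb (-1.07) fell. In CD8 cells with Treg only Id3 of the 16 passed (2.11, adjusted p = 0.000361), as 0.0657% of all genes did. In Treg after transplantation 6 rose and 2 fell, where 13.3% of all genes passed, led by Id3 (-5.42), Id2 (2.88), Tcf7 (-5.10) and Prdm1 (2.16).

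Across all 31 libraries, which share the 10 groups and one normalisation, the genes most like each receptor in log2 value were listed without a test. For Klrc1 they were Ctsd (Pearson r 0.955), Ncald (0.944) and Slamf7 (0.938). Klrc2 was nearest to Klrc3 (0.937), Klrd1 (0.948) and Klrk1 (0.927) to Cd160, and Klre1 to Chpt1 (0.926). Klrg1 was nearest to Ccr8 (0.935), Il10 (0.932) and Ctla4 (0.931). Klra7 was nearest to Tm6sf1 (0.877), and Klrb1c had no gene above 0.728 (Ifitm10). Between members, r was 0.927 for Klrc1 and Klrc2, 0.914 for Klrc1 and Klrd1, and -0.010 for Klrc1 and Klrg1. Within the 13 CD8 libraries the last pair had an r of 0.82 and within the 13 CD4 libraries also 0.82, while Klrk1 and Klrg1 had 0.96 within CD8 cells. Over the 26 CD4 and CD8 libraries together, Klrc1 and Klrg1 had an r of 0.52.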

How the data were processed

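Bulk RNA of 31 libraries of sorted donor T cells in 10 groups was analysed. The labels' protocols name SMARTer v4 for full-length cDNA and Nextera XT for the libraries, and they state no molecular identifiers. Per the submitters' processing notes, kallisto, DESeq2, FastQC 0.11.7 and the build GRCm38 (mm10) were used. The deposited values are a signal: counts that the authors scaled between libraries, with the columns of a DESeq2 table per the file headers. They hold no whole reads, so depth and its precision are unknown, no count test was run, and limma 3.58.1 in R 4.3.3 was used, as the design allowed. One group-means model of log2(value + 1) over all 31 libraries (trend and robust options) gave 19 contrasts, with Benjamini-Hochberg adjustment over 16741 genes at 0.05. Genes needed a mean of at least 1, and none was removed. The deposited fold changes and p-values name no groups and were not used.

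The members and gene lists were chosen with earlier results of these data known. Named genes were the 8 members, up to 4 called genes of each list and contrast with the lowest p (Klri2, Klrb1f and Klra3, outside the rule, were named after their values were seen), the 3 genes most like each member, and Cd4, Cd8a, Foxp3, Ncr1 and Gzma. In simulated data for CD8 allogeneic against syngeneic cells, over 16741 genes, 24% of genes changed by 1 on the log2 scale and 55% of those changed by 2 were recovered. Far fewer genes were changed in the simulation than the 21.1% that passed in the data. Its adjustment was therefore stricter, and these shares do not carry over to the data. CD4 and CD8 libraries with the same label deviated together in all 4 allogeneic pairs (correlations from 0.159 to 0.470) but not in every pair of the other arms. Taking same-labelled libraries of an arm as one recipient, which the labels do not state, and fitting that as a block left 5 members called in CD8 against CD4 allogeneic cells, as without it. Over the 45 receptor values refitted with this block, 2 calls were gained and none lost. Exact permutation tests used scipy 1.17.1 with numpy 2.4.6 and pandas 2.3.3 in Python 3.11.15, and plots matplotlib 3.10.9.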

Additional observations from a re-analysis of the deposited data

Results flagged for a closer look

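In the CD8 allogeneic group, library JL027-1 stood far above the other 3 for Klrc1, at 30522 against 18944 to 20354, and for Klrk1, at 18424 against 10512 to 11369. Its gap to the nearest library exceeded Dixon's critical value in both. Of 32 groups of 4 libraries tested 2 did so, and chance gives about 1 in 20 such groups. Without that library the allogeneic against syngeneic calls of both receptors in CD8 cells held.

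The allogeneic against syngeneic change differed between CD8 and CD4 cells in 4 of 8 receptors, where 4.65% of all genes passed, and in 6 of 8 without the CD4 syngeneic library JL019-2, where 3.97% did. The difference of the Treg effect passed in none of the 8, and in 0.00597% of all genes. The CD8 minus CD4 difference was -3.20 for Klrc1, -4.36 for Klrc2, -3.55 for Klrd1 and 4.52 for Klrg1 on the log2 scale, by the interaction contrast in limma, and -3.50, -5.61, -4.36 and 4.89 without JL019-2.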

How the results depend on the processing

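Of 1200 receptor values refitted under other settings, 1108 kept their sign and side of the threshold, as did 681 of 753 refitted without 1 library. The 1200 include 105 values without the filter, which had removed no gene, so they could not change. Another 105 came from adding a log2 threshold to the same fit, so their sign could not change. Values that were neither called nor printed here were not counted. Counts of receptors called moved by over 1.5 times in 27 of 217 refits. Each count is followed in brackets by the share of all genes passing in the same fit, and values after "from" are those of the 10-group fit. With only the groups compared in the model, the counts were 2 (25.1%) for CD4 Treg-treated against allogeneic, from 0 (22.2%), 1 (3.57%) for CD4 Treg-treated against syngeneic, from 4 (16.7%), 7 (30.5%) for CD8 allogeneic against day 0, from 4 (30.4%), 0 (1.4%) for CD4 syngeneic against day 0, from 2 (13%), and 5 (13.9%) for CD8 syngeneic against day 0, from 3 (24.2%). They were 7 (10.8%) and 4 (1.68%) for CD8 against CD4 at day 0, from 4 (3.32%), and in syngeneic recipients, from 8 (12%), 5 (23.9%) for Treg against day 0, from 3 (13.3%), and 5 (12.4%) for Treg against CD4 at day 0, from 3 (3.89%). With array weights, whose estimation stopped before its tolerance, they were, in the same order of the first 5 comparisons, 3 (47.5%), 7 (48%), 7 (35.5%), 4 (25.2%) and 5 (44.2%). They were then 7 (7.33%) for CD8 against CD4 at day 0, 7 (25.7%) for Treg against day 0, 1 (1.92%) for CD8 Treg-treated against allogeneic, from 0 (0.0657%), 8 (47.4%) for CD4 allogeneic against day 0, from 5 (24%), and 2 (20.2%) for the difference of the Treg effects, from 0 (0.00597%). With the library mean as a covariate they were 3 (3.4%) for CD4 and 1 (0.299%) for CD8 Treg-treated against allogeneic and 8 (26.8%) for Treg against day 0. Quantile normalisation gave 1 (23.3%) for CD4 Treg-treated against allogeneic. Median centring gave 1 (12.1%) for CD4 syngeneic against day 0 and 2 (3.12%) for CD8 against CD4 at day 0. The cause of these shifts was not tested.

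With the library label as a replicate block, the count was 1 (6.93%) for CD4 syngeneic against day 0 and 1 (8.08%) for Treg against day 0. The call of Klrc2 was lost against day 0 in CD4 allogeneic (2.47, adjusted p = 0.0587) and CD8 allogeneic cells (1.19, adjusted p = 0.379), and Klrc2 in CD8 allogeneic against syngeneic cells turned to -0.30. Same-numbered allogeneic and Treg-treated libraries had correlations from -0.212 to 0.212, and whether the number pairs the arms cannot be told from these few libraries.

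Leaving out 1 library gave counts of 1 to 3 for CD4 syngeneic against day 0 (5.82% and 5.63% at the counts of 1), 1 to 3 for Treg against day 0 (6.5% at 1), 2 to 2 for CD8 against CD4 at day 0 (1.59% to 2.03%), where the reduced group kept 1 library assumed to vary like the other groups, and 3 to 4 for CD8 against CD4 allogeneic cells (4.73% and 4.55% at 3), from 5 (6.15%). Signs turned for Klre1 in CD4 allogeneic against syngeneic cells (-0.52 to 1.42), Klrc2 (-0.086 to 0.35) and Klrb1c (-0.088 to 0.36) in CD8 cells, Klrg1 in CD8 syngeneic cells against day 0 (-0.49 to 0.55), Klrd1 with Treg in CD4 (-0.34 to 0.28) and CD8 cells (-0.093 to 0.46), and the CD8 minus CD4 difference of Klrk1 (-0.71 to 0.94). Klrd1 in CD4 cells with Treg was also 0.13 with median centring and 0.23 with array weights, Klrd1 in CD8 allogeneic cells against day 0 was -0.015 with quantile normalisation and -0.92 with the library mean as a covariate, and the Klrk1 difference was -0.43 with array weights. With the library mean as a covariate, Klrd1 in CD8 cells with Treg was -0.36 and Klrg1 in CD8 syngeneic cells against day 0 was -0.65, and the latter was -0.010 with array weights. The count test with DESeq2 was not run, since reads were not recovered. Unknown depth limits what can be said of Klra7 in CD4 and Treg cells, where values lay near 0.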

Other observations

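Ratios of receptor genes were compared between Treg-treated and allogeneic libraries after the values had been seen, as the log2 ratio of 2 genes within a library, by two-sided exact permutation tests. In CD8 cells the log2 ratio of Klrc1 to Klrc2, the inhibitory and the activating partner of CD94, was 4.53 ± 0.193 (SD, n = 4) with Treg and 4.07 ± 0.121 (n = 4) without. The ranges did not overlap, and the difference of 0.46 had an exact p of 0.0286, the smallest that 4 against 4 libraries allow, and an adjusted p of 0.171 over the 6 ratios tested. In CD4 cells the same ratio differed by 0.30 (exact p = 0.229). The ratio of Klrk1 to Klrd1 was lower with Treg by -0.80 in CD4 cells (exact p = 0.0857) and by -0.49 in CD8 cells (exact p = 0.0571), and neither passed (adjusted p = 0.171 for both). Before transplantation, the log2 ratio of Klrc1 to Klrd1 was -2.56 in CD8 cells, and it was -0.27 in CD8 syngeneic, 1.62 in CD8 allogeneic and 1.74 in CD8 Treg-treated cells.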
